A study of Homo sapiens with 9 samples.

Results

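The CCAAT/enhancer-binding proteins (C/EBPs) are a family of transcription factors, and the genes CEBPA, CEBPB, CEBPD, CEBPE, CEBPG and CEBPZ were followed here through every library of the series. They were found by gene symbol and make up 6 of the 56541 genes in the deposited table. The family was selected on values of these same libraries, among them the changes after BCLAF1 knock-down. The knock-down values of the members are therefore a description and carry no test. The comparison with RNA precipitated with BCLAF1 is tested. It uses the same control libraries, so its p-values are not independent of that choice.

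The cells were MOLM-13, a human acute myeloid leukaemia line, and the series compares them with and without depletion of BCLAF1, a nuclear RNA-binding protein. The 9 libraries fall into 3 groups of 3. The shCONTROL group is RNA-seq of cells carrying a control hairpin, and the shBCLAF1 group is RNA-seq of cells carrying a hairpin against BCLAF1. The RIP group is RNA recovered with BCLAF1 by RNA immunoprecipitation from shCONTROL cells. All 9 samples, controls included, had received doxycycline at 200 ng/µL for 4 days. An RNA-seq sample came from 2000000 cells and a RIP sample from 15000000. The labels name no mock precipitation and do not say how many hairpins were used. They do not say whether replicates were separate cultures, so p-values measure only the spread between these samples, which may be technical.

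C/EBPs bind DNA as dimers through a basic region and a leucine zipper, and they pair with each other or with related zipper proteins of the ATF and AP-1 groups. In the bone marrow C/EBP-alpha starts the granulocyte and monocyte programme, C/EBP-epsilon drives late granulocyte maturation, and C/EBP-beta and C/EBP-delta act in stress and inflammation. C/EBP-gamma lacks a strong activation domain and can dampen its partners. The CEBPZ protein carries the family name, but it is a nucleolar factor without that zipper.

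The libraries held 25819144 to 36635268 estimated counts each. A floor of 3 counts was used for detection, equal to 0.0819 to 0.116 CPM, the count relative to the library total after TMM scaling between libraries. BCLAF1, the targeted gene, averaged 322 ± 8.41 CPM in the control group, 113 ± 12.5 after knock-down and 1079 ± 57.4 among precipitated RNA (SD, n = 3 per group). All 10 myeloid blast markers were detected, and their summed level per library was 1827 to 1911 CPM in shCONTROL, 3568 to 3969 in shBCLAF1, and 1508 to 1599 among the RIP libraries. Without LYZ the other 9 summed to 1126 to 1156, 1066 to 1151 and 1463 to 1541 CPM, so shBCLAF1 overlapped shCONTROL and the RIP lay above it. After knock-down 4 of the 10 were called higher and 4 lower. Of the 6 B-cell markers 4 were listed at 0 in all 9 libraries, with sums of 2.86 to 3.32, 2.29 to 2.80 and 1.35 to 2.72 CPM over the groups in the same order. Of the 6 T- and NK-cell markers 4 (CD3E, CD3G, CD2 and CD8A) were also listed at 0, and the sums, from NCAM1 and, at a lower level, CD3D, were 111 to 117, 82.4 to 96.8 and 141 to 170 CPM. Of the 6 erythroid and megakaryocyte markers 5 were listed at 0 in all libraries, and HBA1 was detected in the RIP alone, at 1.24 to 2.67 CPM. Of the 6 stromal and endothelial markers 4 were listed at 0, and the sums, from PECAM1 and VWF, were 193 to 208, 213 to 256 and 446 to 688 CPM. VWF was at 11.1 to 14.0 CPM in shCONTROL and listed at 0 in every shBCLAF1 library, where the sum is PECAM1 alone. The part of these marker levels in the results below was not tested. In bulk RNA, fewer cells of a type and less RNA per cell cannot be told apart.

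After BCLAF1 knock-down the 6 genes moved apart. CEBPE and CEBPD were higher in shBCLAF1 than in shCONTROL, CEBPB and CEBPG were lower, CEBPZ was slightly lower, and CEBPA was level. All 6 members passed the filter on low counts among the 16961 genes tested. With the threshold of 0.05 on p-values that edgeR gave and that were adjusted over all genes (Benjamini-Hochberg), 2 members were called higher and 3 lower. Over all genes 15.5% were called higher and 16.9% lower. In 5 of the 6 members the libraries of both groups did not overlap, which held for 49.3% of all genes. The members were chosen by this contrast, and nothing is read from these counts. The median log2 fold change was -0.090 over the members and 0.017 over all genes. The shBCLAF1 replicate 3 library was the highest of its group for all 6 members, for CEBPG by less than the rounding of the printed values. Without it the log2 fold changes were 2.74 for CEBPE, 0.81 for CEBPD, -0.77 for CEBPB, -0.61 for CEBPG and -0.22 for CEBPZ.

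**Figure D1:**
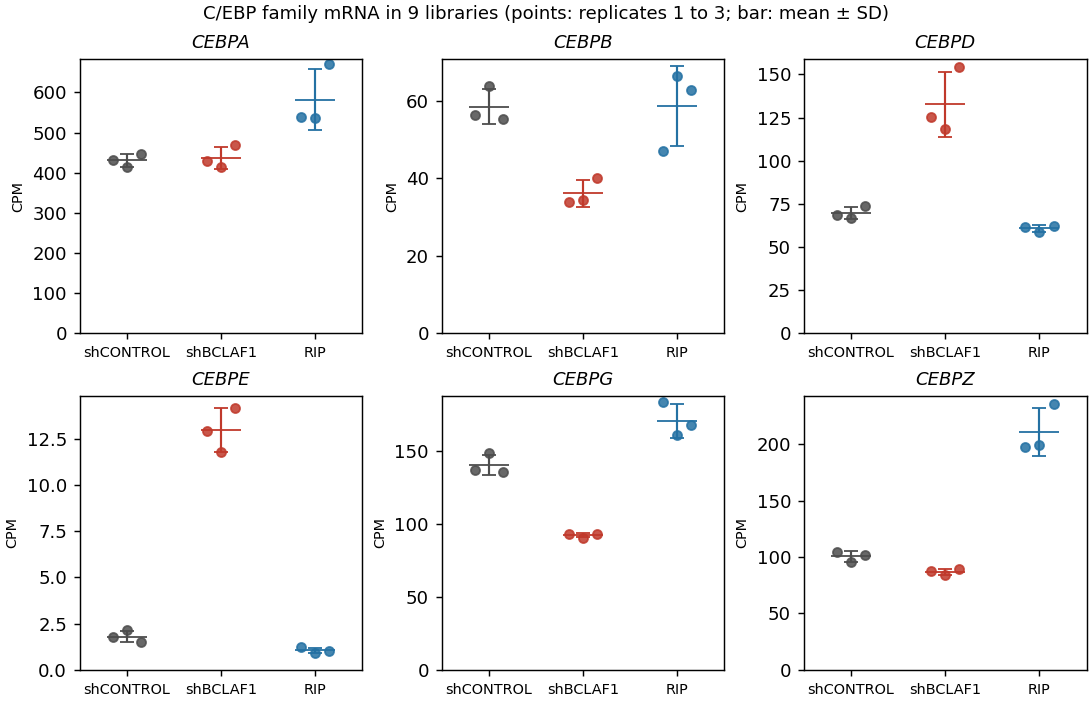
Level of each C/EBP gene in every library, with 1 panel per gene; the vertical axis is CPM (TMM-scaled) and starts at 0, points are libraries, and the bar is the mean ± SD of the group. CEBPE is at 11.8 to 14.2 CPM in shBCLAF1 against 1.53 to 2.13 in shCONTROL, whereas CEBPA overlaps between these groups and CEBPZ is highest in the RIP.

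CEBPA (ENSG00000245848, chr19:33299934-33302534, GRCh38.p14) encodes C/EBP-alpha, the factor that commits progenitors to the granulocyte and monocyte lineages, and it is a gene without introns. It measured 433, 414 and 446 CPM in the shCONTROL libraries, 429, 414 and 468 in shBCLAF1, and 539, 536 and 670 in the RIP. The shCONTROL and shBCLAF1 libraries overlapped, while every RIP library lay above every shCONTROL library. The group means were 431 ± 16.5, 437 ± 27.9 and 582 ± 76.2 CPM (SD, n = 3 each), and the knock-down log2 fold change was 0.025 (SE 0.056). Without shBCLAF1 replicate 3 that value was -0.025. The CEBPA promoter held none of the motifs searched, and at 80.7% GC it was richer in G and C than 97.9% of promoters, measured over 250 bases before to 50 bases after the start.

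CEBPE (ENSG00000092067, chr14:23117306-23119255, GRCh38.p14) encodes C/EBP-epsilon, which activates the genes of secondary neutrophil granules. It measured 1.76, 2.13 and 1.53 CPM in shCONTROL, 12.9, 11.8 and 14.2 in shBCLAF1, and 1.22, 0.920 and 1.04 in the RIP. All 3 shBCLAF1 libraries lay far above every other library, and all 3 RIP libraries lay below shCONTROL. These levels rest on 62, 72 and 55 counts in shCONTROL, 491, 446 and 519 in shBCLAF1, and 31, 26 and 30 in the RIP, so this was the least deeply measured member. No other member had fewer than 1201 counts in a library. The group means were 1.81 ± 0.304, 13.0 ± 1.18 and 1.06 ± 0.149 CPM (SD, n = 3 each). The knock-down log2 fold change was 2.81 (SE 0.16), a 7.01-fold difference, which ranked 101 of the 16961 genes tested from the top.

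The bases before the CEBPE start are shown because this member differed most. They span chr14:23119256-23119505 on the minus strand and come from the RefSeq promoter table of GRCh38.p14. Each promoter in that table, 250 bases before to 50 after a gene's start, was searched on both strands for TTGCNNAA (the core of the palindromic C/EBP site), CCAAT (the CCAAT box) and TGATGNAA (the C/EBP-ATF composite element). No match in a promoter of a member overlapped a match to another motif. TTGCNNAA was present in 10.5% of 35116 promoters, CCAAT in 34.6% and TGATGNAA in 3.62%. The CEBPE stretch held none of them and is printed without capitals.
CEBPE, 250 bases before the start: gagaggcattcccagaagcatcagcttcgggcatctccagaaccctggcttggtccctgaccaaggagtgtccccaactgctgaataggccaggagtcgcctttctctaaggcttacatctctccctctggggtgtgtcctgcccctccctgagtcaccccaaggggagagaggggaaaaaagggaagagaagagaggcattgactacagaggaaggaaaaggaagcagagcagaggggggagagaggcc
The CEBPE promoter had 57.7% GC, more than 47.1% of promoters. No promoter of the 5 members searched held TTGCNNAA, and no CEBPD promoter was searched. A missing match says only that these letters are not in this window.

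CEBPB (ENSG00000172216, chr20:50190583-50192690, GRCh38.p14) encodes C/EBP-beta, an intronless gene whose protein acts in macrophages and in emergency granulopoiesis. It measured 56.4, 63.7 and 55.5 CPM in shCONTROL, 34.0, 34.3 and 40.0 in shBCLAF1, and 47.1, 66.4 and 62.8 in the RIP. Every shBCLAF1 library lay below every shCONTROL library, while the RIP libraries spread around the shCONTROL values. The means were 58.5 ± 4.53, 36.1 ± 3.37 and 58.8 ± 10.3 CPM (SD, n = 3 each). The knock-down log2 fold change was -0.69 (SE 0.088), which left 61.7% of the control level. Its 2 listed promoters shared 1 CCAAT match, just inside the first start.

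CEBPD (ENSG00000221869, chr8:47736913-47738164, GRCh38.p14) encodes C/EBP-delta, an intronless gene switched on quickly by cytokines. It measured 68.4, 67.0 and 73.5 CPM in shCONTROL, 126, 118 and 154 in shBCLAF1, and 61.4, 58.7 and 62.3 in the RIP. All shBCLAF1 libraries lay above all shCONTROL libraries, and the RIP libraries lay just below them. The means were 69.6 ± 3.43, 133 ± 18.9 and 60.8 ± 1.88 CPM (SD, n = 3 each). The knock-down log2 fold change was 0.93 (SE 0.10). CEBPB and CEBPD, the pair known for inflammatory induction, thus differed from the control in opposite directions. The mean log2 ratio of CEBPB over CEBPD within a library was -0.25 in shCONTROL and -1.87 in shBCLAF1.

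Because CEBPA, CEBPB and CEBPD lack introns, their levels could be set side by side per kilobase of gene. In shCONTROL CEBPA stood at 166 ± 6.34 CPM per kb, CEBPD at 55.6 ± 2.74 and CEBPB at 27.8 ± 2.15 (SD, n = 3 each). In shBCLAF1 the levels were 168 ± 10.7, 106 ± 15.1 and 17.1 ± 1.60 CPM per kb, in the same order of genes. In the RIP they were 224 ± 29.3, 48.5 ± 1.50 and 27.9 ± 4.86. CEBPA was above CEBPD, and CEBPD above CEBPB, in each of the 9 libraries, and no neighbouring levels overlapped within a group. The other 3 members have introns and were not placed in this order.

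**Figure D2:**
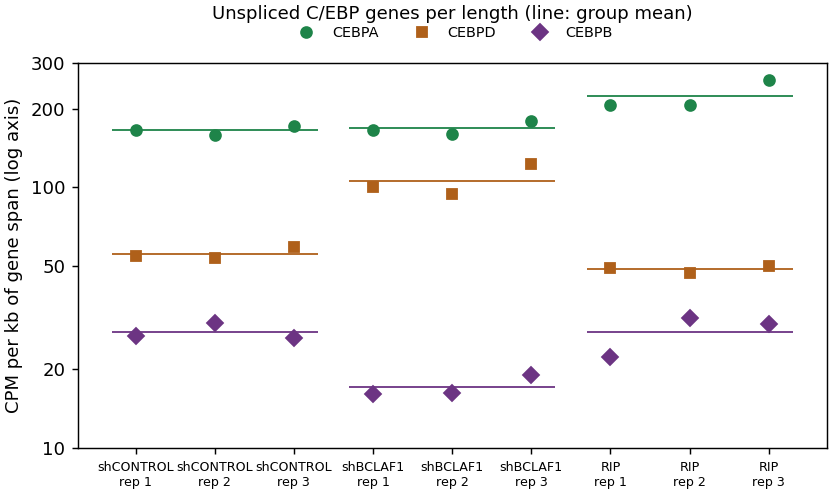
Level of the intronless genes CEBPA, CEBPB and CEBPD per kilobase of gene span, on a log axis of CPM per kb; each point is a library and each line a group mean. CEBPA is highest and CEBPB lowest in every library, with the widest gap between CEBPD and CEBPB in shBCLAF1.

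CEBPG (ENSG00000153879, chr19:33373709-33382686, GRCh38.p14) encodes C/EBP-gamma, a short family member that pairs with the others and with ATF4. It lies on the same chromosome as CEBPA, with 71174 bp between both genes. It measured 137, 149 and 136 CPM in shCONTROL, 93.2, 90.8 and 93.2 in shBCLAF1, and 184, 161 and 168 in the RIP. Every shBCLAF1 library lay below shCONTROL and every RIP library above it. The means were 141 ± 6.98, 92.4 ± 1.41 and 171 ± 11.6 CPM (SD, n = 3 each). The knock-down log2 fold change was -0.60 (SE 0.046), or 65.6% of the control level, and relative to its mean this gene had the narrowest spread among the shBCLAF1 libraries.

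The stretches before and near the CEBPG starts are shown because they held the motif matches, and both come from the RefSeq promoter table of GRCh38.p14. The first spans chr19:33373459-33373708 on the plus strand, and its capitals mark CCAAT read on the other strand. The second spans chr19:33374060-33374089 on the plus strand, near another listed start of this gene. Its capitals mark TGATGNAA, 362 bases after the first listed start.
CEBPG, 250 bases before the first start: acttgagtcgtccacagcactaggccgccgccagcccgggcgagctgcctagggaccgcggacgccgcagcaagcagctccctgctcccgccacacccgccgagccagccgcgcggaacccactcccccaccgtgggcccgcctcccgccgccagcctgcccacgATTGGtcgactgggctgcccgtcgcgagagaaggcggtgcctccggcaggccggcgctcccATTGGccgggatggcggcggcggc
CEBPG, near the second start: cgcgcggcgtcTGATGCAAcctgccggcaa
These matches are a description of letters in the window and were not tied to any binding in these data.

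CEBPZ (ENSG00000115816, chr2:37201612-37231596, GRCh38.p14) encodes the nucleolar CCAAT-binding protein, which is known to bring the RNA methylation enzyme METTL3 to promoters in leukaemia cells. It measured 104, 95.5 and 102 CPM in shCONTROL, 87.5, 84.0 and 89.3 in shBCLAF1, and 198, 199 and 235 in the RIP. The RIP libraries lay far above all others, and the shBCLAF1 libraries lay just below shCONTROL. The means were 101 ± 4.59, 86.9 ± 2.70 and 211 ± 21.3 CPM (SD, n = 3 each). The knock-down log2 fold change was -0.21 (SE 0.047), or 86.5% of the control level. Without 1 of shCONTROL replicate 1, shCONTROL replicate 3, shBCLAF1 replicate 1 or shBCLAF1 replicate 2 the gene was no longer called. The log2 fold changes were then -0.16, -0.19, -0.21 and -0.18, in the same order.

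The gene CEBPZOS lies on the opposite strand and overlaps CEBPZ by 14582 bp. The library kit keeps strand, but the strand setting of the counting is not given in the sources used here, so reads of this pair may be shared. CEBPZOS measured 81.1, 83.0 and 77.5 CPM in shCONTROL, 83.3, 83.1 and 75.8 in shBCLAF1, and 22.4, 20.8 and 15.1 in the RIP. Its RIP libraries lay below all others while those of CEBPZ lay above. Its log2 fold change was 0.008 after knock-down (adjusted p = 0.933) and -2.05 in the RIP (adjusted p = 3.68e-04, edgeR). Of the 5 tested genes that lie beside or antisense to members, 1 was higher and 0 lower after knock-down, with a median of 0.008. In the RIP 1 was higher and 1 lower, with a median of -0.21, and without RIP replicate 3, 2 were higher. Another 4 such genes were not analysed here, and SLC7A10 and SLC7A8 were listed at 0 in every library and not tested. Of all genes, 15.5% were called higher and 16.9% lower after knock-down, and 24.6% and 24.7% in the RIP.

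**Figure D3:**
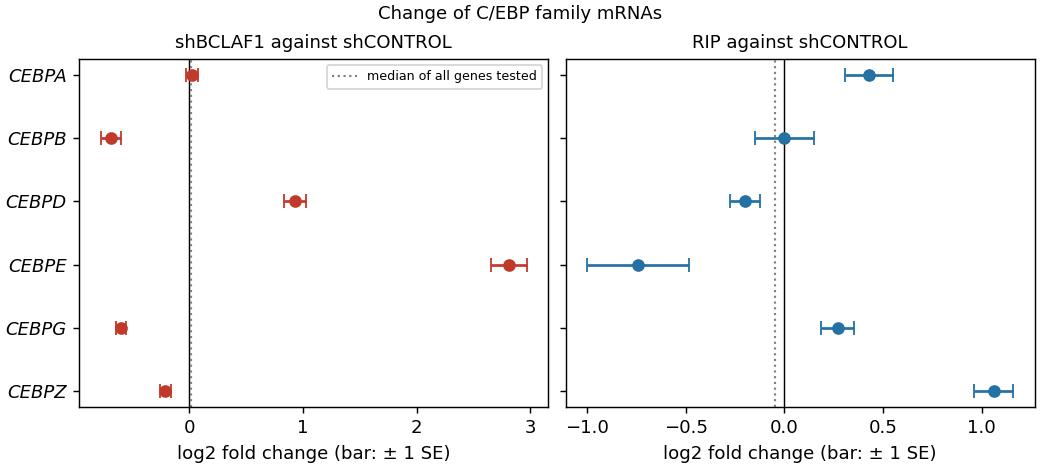
Log2 fold change of each C/EBP gene after knock-down and in the RIP, both against shCONTROL; points are fitted values, bars are ± 1 SE, and the dotted line in each panel is the median of all genes tested. CEBPE stands out at 2.81 after knock-down and CEBPZ at 1.06 in the RIP.

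The RIP comparison asks which of these transcripts were more or less abundant among RNA recovered with BCLAF1 than in RNA-seq of shCONTROL cells. Those RNA-seq libraries came from separate samples, and the fit did not pair them with the precipitations. CEBPZ, CEBPA and CEBPG rose in the RIP, and CEBPB, CEBPD and CEBPE did not pass the test. All 6 members were among the 16727 genes tested, and 3 passed as higher and 0 as lower. Over all genes 24.6% were called higher and 24.7% lower. In 5 members the groups did not overlap, against 67.1% of all genes. The median log2 fold change was 0.14 over the members and -0.049 over all genes.

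CEBPZ was 2.09-fold higher in the RIP, at 1.06 on the log2 scale (SE 0.10, adjusted p = 6.05e-04, edgeR) and all 3 RIP libraries above all 3 shCONTROL libraries. CEBPA was 1.34-fold higher, at 0.43 (SE 0.12, adjusted p = 0.0269), again in 3 of 3 libraries. CEBPG was 1.21-fold higher, at 0.27 (SE 0.084, adjusted p = 0.0374), in 3 of 3 libraries. The CEBPZ call held in all 14 alternatives, with adjusted p between 1.11e-17 and 0.00704. CEBPA no longer passed once any of shCONTROL replicates 1, 2 and 3 was left out (adjusted p = 0.0904, 0.106 and 0.0782). CEBPG no longer passed without any of the same libraries (adjusted p = 0.134, 0.08 and 0.147) and without RIP replicate 1 (adjusted p = 0.0775). With total counts in place of TMM, which shifts the median of all genes by -0.11, CEBPA was at 0.31 (adjusted p = 0.072) and CEBPG at 0.16 (adjusted p = 0.281).

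On the log2 scale CEBPE was at -0.74 in the RIP (SE 0.26, adjusted p = 0.0571), a mean of 58.6% of shCONTROL, and all its RIP libraries lay below shCONTROL. CEBPD was at -0.20 (SE 0.075, adjusted p = 0.0686), also below shCONTROL in 3 of 3 libraries, and CEBPB was at 0.001 (SE 0.15, adjusted p = 0.995) with overlapping groups. Neither CEBPE nor CEBPD passed the threshold, although with total counts CEBPD did, at -0.32 (adjusted p = 0.0297). The knock-down and RIP comparisons share the shCONTROL libraries. Side by side, the knock-down and RIP log2 values were 2.81 and -0.74 for CEBPE, 0.93 and -0.20 for CEBPD, and 0.025 and 0.43 for CEBPA. They were -0.69 and 0.001 for CEBPB, -0.60 and 0.27 for CEBPG, and -0.21 and 1.06 for CEBPZ.

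Ratios of 2 members within a library do not depend on how libraries are scaled. All 15 pairs were compared between the RIP and shCONTROL with an exact two-sided permutation test, which with 3 against 3 libraries cannot go below 0.1, so no pair could pass. CEBPZ was higher in the RIP relative to each other member. The log2 ratio of CEBPA over CEBPZ was lower in the RIP by a difference of -0.64 (SE 0.04), CEBPG over CEBPZ by -0.78 (SE 0.13) and CEBPB over CEBPZ by -1.07 (SE 0.17). For CEBPD over CEBPZ the difference was -1.26 (SE 0.08) and for CEBPE over CEBPZ -1.78 (SE 0.22). None of these 5 ratios overlapped between groups (exact permutation p = 0.1, 0.125 after adjustment over the 15 pairs). In 12 pairs the groups did not overlap, and the 3 that did were CEBPA over CEBPG, CEBPB over CEBPD and CEBPB over CEBPG. No share over pairs of other genes was computed, and 67.1% of single genes did not overlap between these groups. The pairs also share members, so nothing is read from this count.

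The gene lists were chosen with earlier results of these data known, so their counts and p-values are a description. Each count is to be read beside the shares of all genes called. These were 15.5% higher and 16.9% lower after knock-down, and 24.6% and 24.7% in the RIP. C/EBP proteins work in pairs, and the genes of their dimerisation partners were measured as a list of 16, of which 14 were tested. After knock-down 2 were higher, 7 lower and 5 neither, with a median log2 fold change of -0.43 against 0.017 over all genes. DDIT3, which encodes the stress-induced partner CHOP, measured 17.0, 31.1 and 22.4 CPM in shCONTROL, 5.49, 6.66 and 7.42 in shBCLAF1, and 59.6, 62.7 and 80.0 in the RIP. The 3 groups did not overlap. DDIT3 fell by 1.84 on the log2 scale after knock-down (SE 0.24, adjusted p = 0.00252, edgeR) and was 1.51 higher in the RIP (SE 0.24, adjusted p = 0.00314). BATF3 fell by 1.80 (adjusted p = 1.81e-04). ATF3 fell by 1.07 (adjusted p = 0.00333) and ATF4, the main activator of amino acid stress genes, fell by 0.97 (adjusted p = 1.64e-04). In the RIP 11 of the 14 were higher and 0 lower, with a median of 1.19 against -0.049 over all genes. Among them were BATF at 1.98 (adjusted p = 7.01e-04), NFIL3 at 1.93 (adjusted p = 1.42e-04) and JUN at 1.86 (adjusted p = 9.28e-04). Without RIP replicate 2, 2 partners were called lower in the RIP.

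Genes whose products act on C/EBP proteins or mRNAs showed no common direction. Of 19 tested, 3 were higher, 4 lower and 12 neither after knock-down, with a median of 0.042. The shares over all genes were 15.5% higher and 16.9% lower after knock-down, and 24.6% and 24.7% in the RIP. EIF4EBP1, a repressor of cap-dependent translation, fell by 1.04 (adjusted p = 1.41e-04). CALR, a calcium-binding chaperone reported to bind CEBPA and CEBPB mRNA, was 0.70 higher (adjusted p = 0.00498), and TRIB1, which directs C/EBP-alpha to degradation, was 0.37 higher (adjusted p = 0.0042). In the RIP 5 were higher and 8 lower, with a median of -0.088, and without shCONTROL replicate 1 these counts were 3 and 5. They were 3 higher without shCONTROL replicate 2 or 3. FBXW7, a ubiquitin ligase subunit that targets C/EBP proteins, was 1.60 higher in the RIP (adjusted p = 9.59e-04).

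Of 18 tested transcription factors known to act on C/EBP genes, 5 were higher, 7 lower and 6 neither after knock-down, with a median of -0.19. Without shCONTROL replicate 3 or without shBCLAF1 replicate 1, 3 were higher. ZBTB16 had the largest knock-down change of this list. It averaged 9.72 ± 3.04 CPM in shCONTROL (SD, n = 3) and was listed at 0 in every shBCLAF1 library. Its log2 fold change was -7.47 (adjusted p = 8.90e-04, edgeR) and ran from -10.95 to -7.3 over the alternatives. Its shCONTROL mean was 115-fold the detection floor. A listed 0 is no proof that reads were absent, so this is no firm lower bound. MYC, which can repress CEBPA, measured 688, 663 and 687 CPM in shCONTROL and 375, 361 and 370 in shBCLAF1. It fell by 0.88 on the log2 scale (adjusted p = 9.73e-05), with no overlap. RARA, the retinoic acid receptor that acts upstream of CEBPE, measured 76.5, 73.0 and 73.9 CPM in shCONTROL and 128, 127 and 129 in shBCLAF1. It rose by 0.79 (adjusted p = 1.25e-04). In the RIP 5 of the 18 were higher and 3 lower, with a median of 0.36.

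The known target genes of the family were read as 6 myeloid and stress lists. Beside them, 15.5% of all genes were called higher and 16.9% lower after knock-down, and 24.6% and 24.7% in the RIP. Of 12 primary granule genes, the class under C/EBP-alpha, 10 rose after knock-down and 0 fell, with a median of 0.58. BPI, a bactericidal protein, rose by 2.01 (adjusted p = 9.73e-05), LYZ, lysozyme, by 1.86 (adjusted p = 1.19e-04), RNASE3 by 1.17 (adjusted p = 0.00399) and MS4A3 by 1.12 (adjusted p = 7.77e-04). In the RIP 9 of these 12 fell and 2 rose, with a median of -1.23, and LYZ fell by 3.97 (adjusted p = 2.24e-04). The count of 2 that rose was 0 without shCONTROL replicate 1 or 3 and 1 without shCONTROL replicate 2. LYZ is also 1 of the myeloid blast markers, and without it their sums in shBCLAF1 and shCONTROL overlapped, as given above.

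Secondary granule and late neutrophil genes are the class under C/EBP-epsilon. Of 16 on the list only 8 passed the low-count filter, and 4 of these rose and 1 fell after knock-down, with a median of 0.47. LTF, LCN2, MMP8, CRISP3, OLFM4 and CEACAM8, the defining granule genes, were listed at 0 in all 9 libraries. SLPI, a protease inhibitor, measured 4.73, 4.56 and 5.09 CPM in shCONTROL and 36.3, 36.5 and 41.8 in shBCLAF1, and it rose by 2.98 (adjusted p = 7.97e-05). CYBB, the catalytic subunit of the phagocyte oxidase, measured 12.7, 10.7 and 11.4 CPM in shCONTROL and 75.8, 73.9 and 66.8 in shBCLAF1, and it rose by 2.64 (adjusted p = 8.17e-05). Neither gene overlapped between these groups. In the RIP 0 of 7 tested rose and 4 fell, with a median of -1.22.

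Of 11 tested myeloid receptor genes 4 rose and 0 fell after knock-down, with a median of 0.098. CLEC12A, an inhibitory lectin receptor, rose by 3.76 (adjusted p = 2.02e-04) and TLR4, the endotoxin receptor, by 1.48 (adjusted p = 6.81e-04). In the RIP 6 of the receptor genes fell, but only 2 without shCONTROL replicate 1, shCONTROL replicate 2 or RIP replicate 1, and 3 without shCONTROL replicate 3. Of 11 tested monocyte S100 and effector genes 8 rose and 1 fell after knock-down, with a median of 0.65. S100A9 rose by 3.61 (adjusted p = 7.97e-05) and S100A8, its partner in the calprotectin complex, by 2.76 (adjusted p = 2.35e-04). In the RIP 3 of these rose and 5 fell, and 3 fell without shCONTROL replicate 2 or 3.

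Of 8 tested inflammatory targets of C/EBP-beta and C/EBP-delta, 3 rose and 0 fell after knock-down, with a median of 0.42, and without shCONTROL replicate 3, 1 fell. CXCL8, a neutrophil chemokine, rose by 1.81 (adjusted p = 5.71e-04) and SOCS3, a brake on cytokine signalling, by 1.18 (adjusted p = 4.71e-04). In the RIP 2 of the 8 rose and 0 fell, with 1 that rose without shCONTROL replicate 1 and 0 without shCONTROL replicate 3. Stress targets that ATF4 activates with C/EBP partners went the other way. All 14 on the list were tested and all 14 fell after knock-down, with a median of -1.68. This list too was chosen with earlier results of these data known, so the count is a description. STC2, a secreted glycoprotein, fell by 4.56 (adjusted p = 8.17e-05), CHAC1, a glutathione-degrading enzyme, fell by 3.77 (adjusted p = 5.24e-04), and ASNS, asparagine synthetase, fell by 2.05 (adjusted p = 2.57e-04). In the RIP 3 of the 14 rose and 8 fell against shCONTROL, with a median of -0.84. With the mean of both RNA-seq groups as the reference, which holds the lower knock-down levels, the counts were 8 and 3.

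Of 10 genes for proteins that work with or beside CEBPZ, the nucleolar NOC proteins and the RNA methylation enzymes among them, 0 were higher and 4 lower after knock-down, with a median of -0.11. That count was 1 without shCONTROL replicate 1, shCONTROL replicate 3 or shBCLAF1 replicate 2, and 2 without shCONTROL replicate 2 or shBCLAF1 replicate 1. In the RIP 4 rose and 3 fell, with a median of 0.63. NOC3L, a nucleolar ribosome factor, was 1.01 higher in the RIP (adjusted p = 0.00289), WTAP, the scaffold of the methylation complex, 1.00 higher (adjusted p = 4.27e-04), and NOC2L, the partner of NOC3L, fell by 0.80 (adjusted p = 0.00332). Because 3 members are intronless, 20 other tested single-exon genes were read beside them. After knock-down 3 were higher and 8 lower, with a median of -0.14, and in the RIP 7 were higher and 6 lower, with a median of 0.30. Beside both lists, the shares over all genes were 15.5% higher and 16.9% lower after knock-down, and 24.6% and 24.7% in the RIP. RHOB was 2.38 higher in the RIP (adjusted p = 0.00127). JUN, JUNB and JUND are on the single-exon list and also among the dimerisation partners. All were called higher in the RIP, so the counts of those lists share them.

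**Figure D4:**
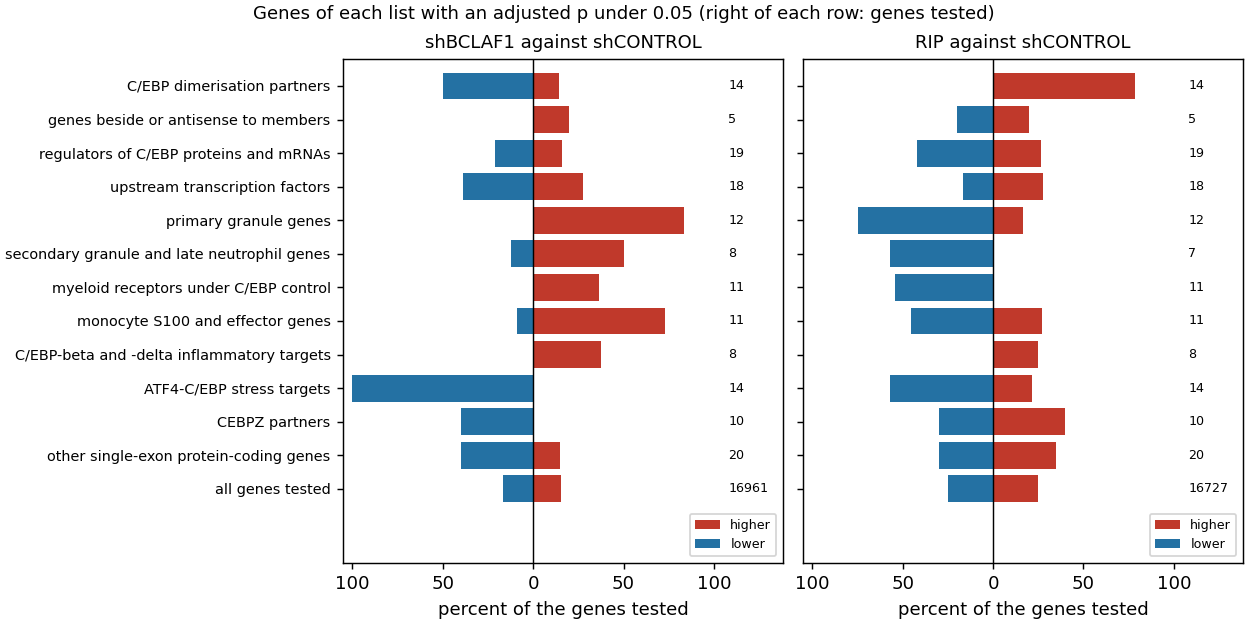
Share of the tested genes of each list, and of all genes, that were higher (right) or lower (left) at an adjusted p under 0.05, in percent, after knock-down and in the RIP; numbers beside the bars count the genes tested. All 14 stress targets were lower after knock-down, and 11 of 14 dimerisation partners were higher in the RIP. The lists were chosen with earlier results of these data known.

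The genes with the profile most like that of a member were sought for CEBPE, CEBPD and CEBPZ, whose group means span at least 1 on the log2 scale. Likeness was the root-mean-square difference of log2 CPM, each gene centred on its mean over the 9 libraries, among 13310 genes. For CEBPE the nearest were CYBB (difference 0.285), GGT5 (0.380) and FCAR (0.404). For CEBPD they were TEP1 (0.118), LIMK2 (0.127) and ANKRD39 (0.137). For CEBPZ they were SART3 (0.0509), SUPT16H (0.0534) and NFX1 (0.0632). Mean CYBB levels were 11.6, 72.2 and 4.98 CPM in shCONTROL, shBCLAF1 and RIP libraries, the same order of groups as CEBPE. CEBPA, CEBPB and CEBPG, with spans of 0.43, 0.70 and 0.89, were left out of this search.

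**Figure D5:**
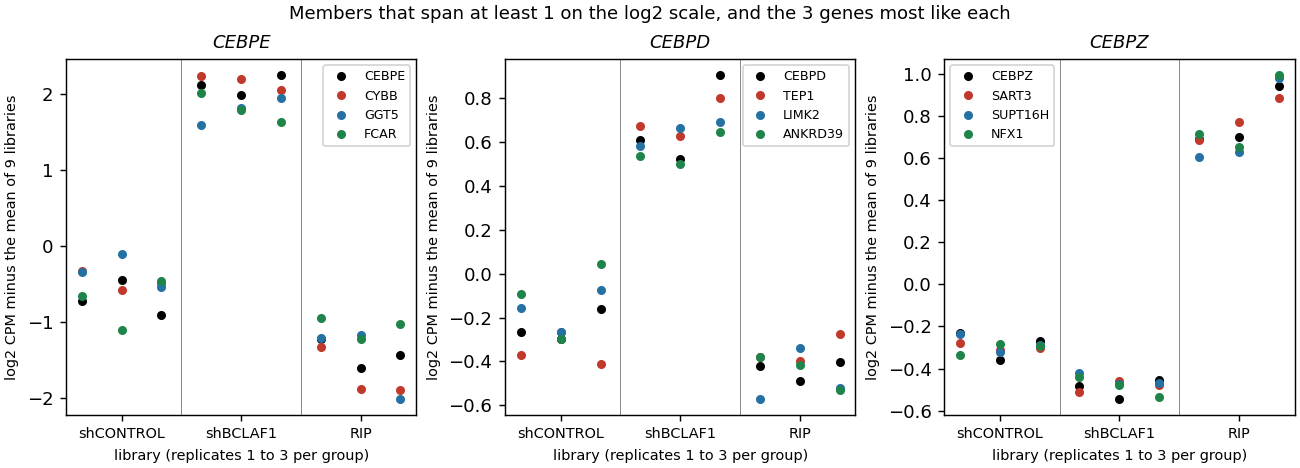
Centred log2 CPM of CEBPD, CEBPE and CEBPZ and of the 3 genes most like each, per library (replicates 1 to 3 of each group, vertical lines between groups). The genes near CEBPZ lie within a root-mean-square difference of 0.0632 of it, and those near CEBPE within 0.404.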

How the data were processed

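RNA-seq and RIP libraries of MOLM-13 cells were analysed. The values were estimated counts, deposited by the authors as whole numbers in 1 table with a row per gene and no normalization. Per the submitters' processing notes, STAR 2.7.11b and StringTie 2.2.3 were used with hg38. The annotation and strand setting are not given in the sources used here. The entry that names no gene (2.18% to 3.75% of counts in 8 libraries) was left out.

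Both contrasts were fitted with edgeR 4.0.16 (R 4.3.3) on their own 6 libraries: default low-count filter, TMM scaling, prior count of 2, quasi-likelihood F-test on group, Benjamini-Hochberg over all genes, threshold 0.05. The code was tested on simulated data. DESeq2 1.42.0, other scalings, no filter, 1 fit of all 9 libraries, a replicate block and leaving out each library were alternatives. Named genes were all members and, per list and contrast, up to 4 genes with the largest log2 fold change among those that passed, averaged 20 counts or more and did not overlap between groups; for some lists fewer are printed. The members and the 12 gene lists were chosen with earlier results of these data known. Floors of 3 counts cover counting error only, and PCR copies count as separate reads. A listed 0 is no proof that reads were absent.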

Additional observations from a re-analysis of the deposited data

How the results depend on the processing

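The members were chosen by the knock-down contrast, so whether its calls stay the same is a description and no support for them. The knock-down directions of CEBPB, CEBPD, CEBPE and CEBPG were the same in all alternatives run. Their log2 ranges were -0.77 to -0.62, 0.81 to 1.01, 2.71 to 2.95 and -0.62 to -0.55. CEBPA was called in none of them and ran from -0.025 to 0.077, below 0 only without shBCLAF1 replicate 3. CEBPZ was no longer called with total counts (-0.15) or with 1 fit of all 9 libraries (-0.21), and ran from -0.23 to -0.16 when 1 library was left out. That 1 fit called 1129 genes higher and 1318 lower after knock-down, against 2625 and 2859, and the cause was not tested. In the RIP, total counts gave 0.31 for CEBPA and 0.16 for CEBPG, both no longer called, and -0.32 for CEBPD, now called. Leaving out 1 library gave 0.32 to 0.48 for CEBPA and 0.22 to 0.31 for CEBPG. CEBPE at -0.74 was called when all 9 libraries were fitted together (adjusted p = 0.00807, edgeR). With both RNA-seq groups averaged as the reference, which brings the knock-down values in, CEBPB was at 0.35, CEBPD at -0.66 and CEBPE at -2.14, all called, and STC2 reversed to 0.95. Of the 14 ATF4-C/EBP stress targets 8 were then higher and 3 lower, against 3 and 8. Of 600 alternative list counts 550 stayed within 1.5 times, and of 1336 alternative values for genes the lists name 1246 had the same direction and call. After knock-down CALR, RARA and S100A8 were not called when all 9 libraries were fitted together (adjusted p = 0.0536, 0.0712 and 0.0753). Same-numbered replicates did not deviate together (correlations of 0.0201, 0.0564 and 0.00411 for the knock-down), so these values show no pairing by number. Whether such replicates were handled together cannot be told from them. With the replicate block CEBPA was at 0.42 (adjusted p = 0.0598, edgeR) and CEBPG at 0.27 (adjusted p = 0.116) in the RIP. CEBPE in the RIP rests on 26 to 31 counts per library, which limits its precision.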
